A study of Homo sapiens with 6 samples.

Results

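To place SK-N-AS cells on the adrenergic-mesenchymal axis, the expression of 8 genes was examined among the 58735 genes listed in each library. The genes were chosen by name. They were the adrenergic transcription factors *PHOX2A*, *HAND2*, *GATA2*, *GATA3*, *ISL1* and *TBX2*, and the catecholamine enzymes *TH* and *DBH*. All 8 were found in the tables, and 7 of them had a mean of at least 1 FPKM (fragments per kilobase of exon, scaled to the depth of the library) over the libraries.

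SK-N-AS is an established human neuroblastoma cell line. Cells received either siPrp19, a small interfering RNA that targets Prp19, or a negative control (NC) siRNA, and RNA was sequenced in 3 libraries per group. Prp19 is a splicing factor encoded by *PRPF19*. Per the labels, cells were collected at 72 h, longer than the study's methods state, and all libraries came from a single line with no untransfected control.

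Libraries are named here by the column of values in each file, namely NCa, NCb and NCc, and siPrp19a, siPrp19b and siPrp19c. For 4 of the 6 files this name belongs to a sample other than that of the file's record. For NCb, recorded under a siPrp19 sample, and siPrp19b, recorded under an NC sample, the groups are opposite. The main comparison therefore followed the column names, and the result of each tested member is also given for the 4 libraries (NCa, NCc, siPrp19a and siPrp19c) in which both sources name the same group. *PRPF19* was at 83.0 FPKM in NCa, 83.1 in NCb and 93.0 in NCc. It was at 19.6 FPKM in siPrp19a, 19.1 in siPrp19b and 18.5 in siPrp19c, so the target separated the libraries by column name. Its log2 fold change was -2.12 ± 0.07 (SE, adjusted p = 0.000215 by limma), and -2.15 (adjusted p = 0.0266) in the 4 libraries.

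Between 14887132 and 19977811 reads were recovered per library. The mitochondrial share of reads was 8.29% in siPrp19a and between 5.15% and 5.49% in the others. The libraries of a group were unequally alike. Chi-square per degree of freedom for a pair of libraries, which is near 1 for sampling noise alone, was 1.66 for NCa with NCb and 2.48 for siPrp19b with siPrp19c, against 16.0 to 41.2 for the other 13 pairs. The methods describe biological replicates, but nothing in the labels ties a library to its own culture, so the p-values measure the spread between these libraries, which may in part be technical.

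Neuroblastoma arises from the sympathoadrenal lineage of the neural crest. Its cells can take an adrenergic state, held by a circuit of transcription factors that activate each other and the genes of noradrenaline synthesis, or a mesenchymal state, which resembles migratory neural crest and is marked by factors such as PRRX1 and TWIST1. In noradrenaline synthesis, tyrosine hydroxylase (TH) makes L-DOPA from tyrosine, DOPA decarboxylase (DDC) makes dopamine, and dopamine beta-hydroxylase (DBH) makes noradrenaline.

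Start-site sequence was taken from RefSeq (GRCh38.p14, 250 bases before to 50 after each start), which matched 6 of the 8 genes. Not matched were *TBX2* and *TH*. The windows shown are *HAND2*, the most abundant member, *ISL1*, whose start lies beside that of an opposite-strand transcript, and *DBH*, the enzyme expressed without much TH. They lie at chr4:173530180-173530479 (minus strand), chr5:51383198-51383497 (plus strand) and chr9:133636113-133636412 (plus strand). Capitals mark letters that match the homeodomain core ATTA, the E-box CANNTG, the GATA motif GATAA or the cyclic AMP response element core TGACG on either strand, and matches may overlap.
HAND2: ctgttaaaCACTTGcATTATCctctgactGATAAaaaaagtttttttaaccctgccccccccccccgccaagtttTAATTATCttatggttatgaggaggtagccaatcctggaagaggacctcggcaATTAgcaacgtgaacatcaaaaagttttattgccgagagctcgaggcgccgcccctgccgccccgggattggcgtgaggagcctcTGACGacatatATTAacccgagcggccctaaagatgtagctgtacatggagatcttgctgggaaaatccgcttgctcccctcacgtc
ISL1: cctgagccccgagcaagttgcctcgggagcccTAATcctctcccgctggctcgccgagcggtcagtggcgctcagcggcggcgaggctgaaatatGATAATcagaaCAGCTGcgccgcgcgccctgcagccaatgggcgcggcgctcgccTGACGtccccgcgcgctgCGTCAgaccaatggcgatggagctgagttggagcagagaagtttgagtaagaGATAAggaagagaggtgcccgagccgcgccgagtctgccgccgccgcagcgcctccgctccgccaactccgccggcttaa
DBH: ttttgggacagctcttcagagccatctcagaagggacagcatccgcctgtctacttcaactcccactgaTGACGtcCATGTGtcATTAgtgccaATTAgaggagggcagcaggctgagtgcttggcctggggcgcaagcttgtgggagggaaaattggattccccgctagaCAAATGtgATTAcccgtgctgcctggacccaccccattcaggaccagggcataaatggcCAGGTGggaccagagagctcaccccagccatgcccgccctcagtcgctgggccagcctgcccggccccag

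ATTA was found 5 times in the *HAND2* window, 2 times in that of *ISL1* and 3 times in that of *DBH*. GATAA was found 3 times for *HAND2*, 2 times for *ISL1* and 0 times for *DBH*. TGACG was found 1 time for *HAND2*, 2 times for *ISL1* and 1 time for *DBH*, and CANNTG 1, 1 and 3 times. Of 35116 windows of 300 bases, 50.2% held ATTA, 68.7% CANNTG, 22.7% GATAA and 24.6% TGACG. The windows of *PHOX2A*, *GATA2* and *GATA3* held no TGACG. A match describes letters and not a bound site.

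The factors and enzymes were expressed over a wide range. *HAND2* was the most abundant, followed by *TBX2*, then *GATA3*, *PHOX2A* and *GATA2* close together, then *DBH* and *ISL1*, with *TH* far below. Mean levels over the 6 libraries were 150 FPKM for *HAND2*, rank 184 of 58735 genes, and 84.4 FPKM for *TBX2*, rank 384. They were 26.6 FPKM for *GATA3*, 22.8 FPKM for *PHOX2A* and 19.9 FPKM for *GATA2*. *DBH* was at 10.3 FPKM, *ISL1* at 7.14 FPKM and *TH* at 0.437 FPKM. The ranges over libraries overlapped between *GATA3* and *PHOX2A* and between *PHOX2A* and *GATA2*. Compared within each library, *GATA3* was above *PHOX2A* in 6 of 6. *PHOX2A* was above *GATA2* in 4 of 6, so the order of that pair was not the same in all libraries. The other 5 steps of the order had ranges that did not overlap.

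**Figure D1:**
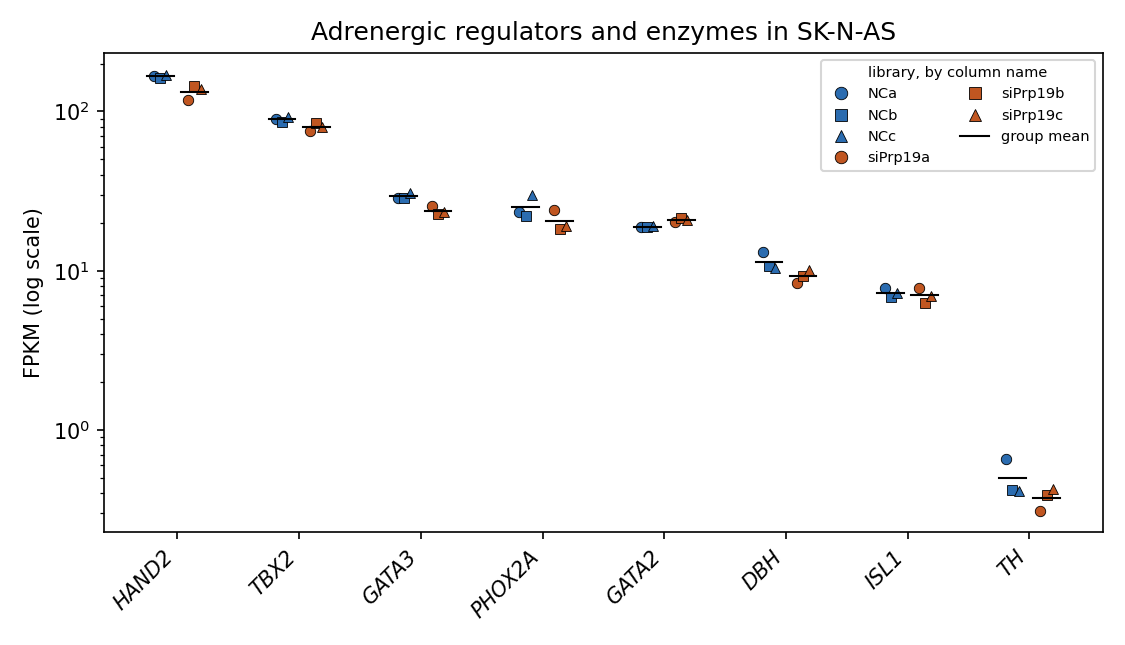
FPKM (log axis) of the 8 genes in each library, ordered by mean level. Blue points are NC libraries, orange points siPrp19 libraries and bars group means. *HAND2* lies between 117 and 170 FPKM and *TH* between 0.312 and 0.662 FPKM.

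*HAND2* (ENSG00000164107, chromosome 4, 173524969 to 173530229, minus strand) encodes a basic helix-loop-helix factor of sympathetic neuron development. It was at 167.7 FPKM in NCa, 162 in NCb and 169.9 in NCc, and at 117 FPKM in siPrp19a, 144 in siPrp19b and 139 in siPrp19c. The groups did not overlap, and siPrp19a, the library with the higher mitochondrial share, was the lowest. Group means were 167 ± 4.01 FPKM in NC and 133 ± 14.1 FPKM in siPrp19 (SD, n = 3 each). The difference on the log2 scale was -0.32 ± 0.10 (SE), with a 95% interval from -0.56 to -0.09, and did not pass the threshold (adjusted p = 0.101 by limma). In bulk RNA, fewer cells that express a gene and less RNA per cell cannot be told apart. In the 4 libraries the log2 fold change was -0.40 (adjusted p = 0.414 by limma), and under quantile normalization it was -0.16 (adjusted p = 0.389).

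*TBX2* (ENSG00000121068, chromosome 17, 61399896 to 61409466, plus strand) encodes a T-box repressor. It was at 89.7 FPKM in NCa, 85.4 in NCb and 91.9 in NCc, and at 75.5 FPKM in siPrp19a, 84.2 in siPrp19b and 79.6 in siPrp19c. Every siPrp19 value lay under the lowest NC value, with a narrow gap between siPrp19b and NCb. On the log2 scale the difference was -0.16 ± 0.08 (SE, adjusted p = 0.270 by limma). It was -0.23 (adjusted p = 0.577) in the 4 libraries and moved to -0.01 under quantile normalization.

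The GATA factors are zinc-finger proteins of sympathetic precursors. *GATA3* (ENSG00000107485, chromosome 10, 8045378 to 8075203, plus strand) was at 28.7 FPKM in NCa, 28.6 in NCb and 30.7 in NCc, and at 25.4 FPKM in siPrp19a, 22.8 in siPrp19b and 23.4 in siPrp19c. All siPrp19 libraries were lower than all NC libraries. Of the members tested, it came nearest to the threshold. Its log2 fold change was -0.29 ± 0.07 (SE), with a 95% interval from -0.45 to -0.12 (adjusted p = 0.0550 by limma). Without siPrp19a the log2 fold change was -0.33 and passed (adjusted p = 0.0407 by limma), whereas in the 4 libraries it was -0.27 (adjusted p = 0.458). It was also smaller under quantile normalization (-0.20, adjusted p = 0.159 by limma) and with voom on reads (-0.22, adjusted p = 0.111).

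*GATA2* (ENSG00000179348, chromosome 3, 128479427 to 128493185, minus strand) was at 18.8 FPKM in NCa, 18.7 in NCb and 19.2 in NCc, and at 20.1 FPKM in siPrp19a, 21.6 in siPrp19b and 20.9 in siPrp19c. It was the member whose siPrp19 libraries were all above the NC libraries. Its log2 fold change was 0.14 ± 0.06 (SE, adjusted p = 0.235 by limma), 0.11 (adjusted p = 0.746) in the 4 libraries and 0.22 (adjusted p = 0.114) with voom on reads. The ratio of *GATA3* to *GATA2* FPKM within a library does not depend on scaling between libraries. It was 1.53 in NCa, 1.53 in NCb and 1.60 in NCc, and 1.26 in siPrp19a, 1.06 in siPrp19b and 1.12 in siPrp19c. The mean ratio was 1.55 ± 0.0419 (SD, n = 3) in NC and 1.15 ± 0.104 (SD, n = 3) in siPrp19. The groups did not overlap, and an exact permutation test, two-sided, gave p = 0.1, below which a design of 3 against 3 cannot go. This ratio was chosen after the values were seen.

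*PHOX2A* (ENSG00000165462, chromosome 11, 72239077 to 72245664, minus strand) encodes a homeodomain factor of noradrenergic neurons. It was at 23.3 FPKM in NCa, 22.0 in NCb and 29.98 in NCc, and at 24.1 FPKM in siPrp19a, 18.4 in siPrp19b and 19.1 in siPrp19c. The groups overlapped, since siPrp19a was above NCa and NCb. The log2 fold change was -0.27 ± 0.15 (SE, adjusted p = 0.315 by limma), and -0.29 (adjusted p = 0.585) in the 4 libraries. Without NCc, the highest library, it was -0.14 (adjusted p = 0.526), and without siPrp19a it was -0.39 (adjusted p = 0.161). Under quantile normalization it was -0.17 (adjusted p = 0.525).

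*ISL1* (ENSG00000016082, chromosome 5, 51383391 to 51394738, plus strand) encodes a LIM-homeodomain factor. It was at 7.82 FPKM in NCa, 6.80 in NCb and 7.22 in NCc, and at 7.78 FPKM in siPrp19a, 6.31 in siPrp19b and 6.92 in siPrp19c. The groups overlapped in most of their range. The log2 fold change was -0.05 ± 0.09 (SE, adjusted p = 0.782 by limma), with a 95% interval from -0.27 to 0.16, and its sign turned with the method. In the 4 libraries it was -0.03 (adjusted p = 0.940).

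*DBH* (ENSG00000123454, chromosome 9, 133635348 to 133659344, plus strand) was at 13.0 FPKM in NCa, 10.7 in NCb and 10.5 in NCc, and at 8.40 FPKM in siPrp19a, 9.23 in siPrp19b and 10.1 in siPrp19c. The groups did not overlap, but siPrp19c and NCc lay close together. The log2 fold change was -0.27 ± 0.10 (SE, adjusted p = 0.169 by limma), and -0.31 (adjusted p = 0.489) in the 4 libraries. Without NCa, the highest library, it was -0.18 (adjusted p = 0.391).

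*TH* (ENSG00000180176, chromosome 11, 2163929 to 2171877, minus strand) had a mean below 1 FPKM and was not tested with the other genes. It was at 0.662 FPKM in NCa (34 reads), 0.418 in NCb (20 reads) and 0.412 in NCc (23 reads), and at 0.312 FPKM in siPrp19a (16 reads), 0.392 in siPrp19b (21 reads) and 0.426 in siPrp19c (29 reads). The exact Poisson interval ran from 23.5 to 47.5 reads in NCa and from 9.15 to 26.0 reads in siPrp19a, the extremes, and covers counting error only. The groups overlapped, and the difference of -0.12 on the log2(FPKM + 1) scale had p = 0.3 (exact permutation test, two-sided). *DBH* was between 19.7 and 26.9 times as abundant as *TH* in every library, per length of exon.

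Across the members, 0 of the 7 tested passed limma at the adjusted threshold of 0.05, against 7.94% of the 13718 genes tested (1089 genes). Of all genes tested, 2.57% were higher (353 genes) and 5.37% lower in siPrp19 (736 genes). Before adjustment, 3 of the 7 had p under 0.05, namely *HAND2*, *GATA3* and *DBH*, against 23.6% of all genes tested. With voom, a limma model for reads, 0 of the 7 passed, against 9.97% of all genes (5.49% higher and 4.48% lower), with 3 of 7 under 0.05 before adjustment (26% of all genes) and a smallest adjusted p-value of 0.111. In FPKM, the groups did not overlap for 5 of the 7 members, against 31.3% of all genes tested. Of these members 4 were lower in siPrp19 (18.1% of all genes) and 1 was higher (13.2% of all genes). The median log2 fold change was -0.27 over the 7 tested members and -0.02 over all genes. The size of this contrast depended on scaling. Under quantile normalization the median over all genes was 0.01. There *DBH* was at -0.23, *GATA3* at -0.20, *PHOX2A* at -0.17, *HAND2* at -0.16, *ISL1* at -0.02, *TBX2* at -0.01 and *GATA2* at 0.21. In the 4 libraries, 0 of the 7 members and 0.0146% of all genes passed (2 genes), and 0 members had an unadjusted p-value under 0.05, against 12.3% of all genes. With the groups as recorded, 0 of 13718 genes passed by limma and 191 had an unadjusted p-value under 0.05.

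**Figure D2:**
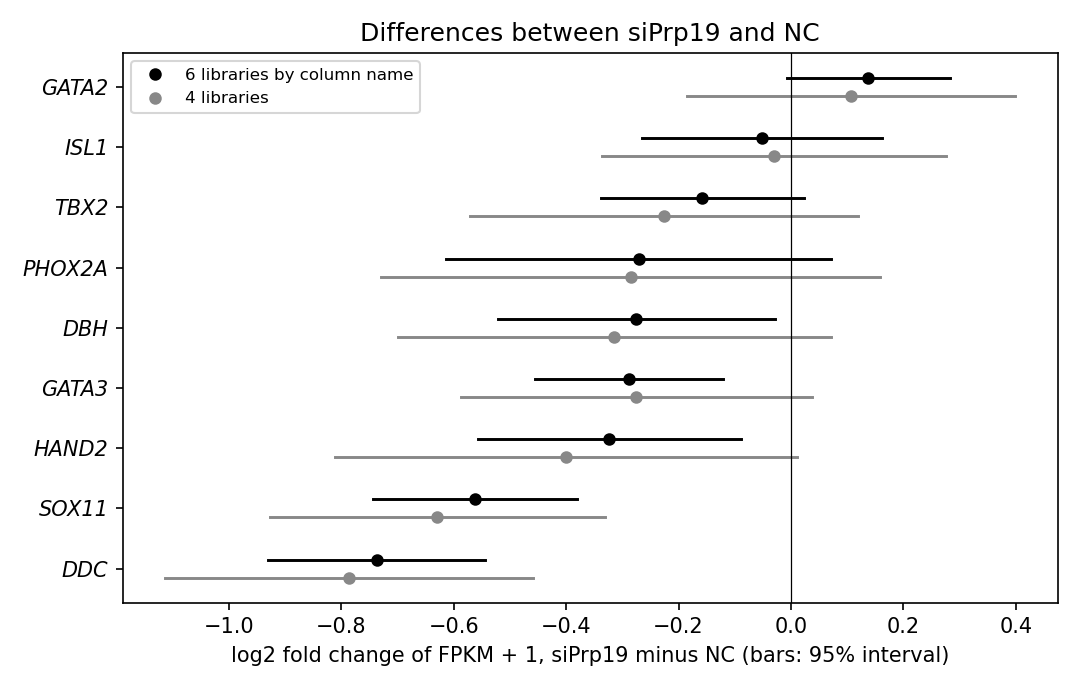
Log2 fold change of FPKM + 1 (siPrp19 minus NC) with 95% intervals from limma for the 7 tested members and for *SOX11* and *DDC*. Black is all 6 libraries by column name and grey the 4 libraries. *GATA2* lies at 0.14 and *HAND2* at -0.32, while *SOX11* lies at -0.56 and *DDC* at -0.74.

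A further 13 adrenergic transcription factors were examined, of which 9 were tested. Of these, 2 of 9 were called lower in siPrp19 (5.37% of all genes tested), among them *SOX11*, and the remaining 7 did not pass. *SOX11*, a factor of immature neurons, fell from 8.07 ± 0.489 to 5.14 ± 0.365 FPKM (SD, n = 3 each; log2 fold change -0.56, adjusted p = 0.00953 by limma, and 0.143 in the 4 libraries). *KLF13* was at 8.15 FPKM in NC and 9.64 FPKM in siPrp19 (adjusted p = 0.210), and *PBX3* at 8.81 and 8.39 FPKM (adjusted p = 0.673). The median log2 fold change of the 9 was -0.14.

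Of 12 other genes of catecholamine metabolism and storage, 8 were tested and 3 passed, against 7.94% of all genes tested. *DDC* fell from 40.4 FPKM in NCa, 38.2 in NCb and 45.3 in NCc to 23.7 FPKM in siPrp19a, 24.2 in siPrp19b and 25.1 in siPrp19c. The siPrp19 libraries lay within a narrow band well under the NC libraries. The log2 fold change was -0.74 ± 0.08 (SE, adjusted p = 0.00553 by limma), and -0.79 (adjusted p = 0.120) in the 4 libraries. *GCH1*, which makes the pterin cofactor of TH, rose from 7.95 ± 0.268 to 10.1 ± 0.156 FPKM (SD, n = 3 each; log2 fold change 0.31, adjusted p = 0.0263 by limma, and 0.377 in the 4 libraries). *CHGB*, a granin of secretory granules, rose from 1.93 ± 0.107 to 3.92 ± 0.673 FPKM (SD, n = 3 each; log2 fold change 0.74, adjusted p = 0.0134 by limma, and 0.177 in the 4 libraries). The other granin listed, *CHGA*, was at 5.31 FPKM in NC and 3.54 FPKM in siPrp19. It did not pass (log2 fold change -0.47, adjusted p = 0.150 by limma, and 0.201 in the 4 libraries). *CYB561*, the electron carrier of the granule membrane, was at 34.4 FPKM in NC and 30.5 FPKM in siPrp19 (adjusted p = 0.395). Of the 8 tested, 4 lay lower in siPrp19 without overlap of the groups (18.1% of all genes) and 2 higher (13.2% of all genes).

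The levels of the synthesis genes differed along the pathway. *DDC* was between 59.0 and 110 times as abundant as *TH*. *PNMT*, which makes adrenaline from noradrenaline, had between 2 and 5 reads per library, near the floor of 3 reads. The vesicular transporter *SLC18A2* (0 to 3 reads) was also near it, and *SLC18A1* had 4 to 17 reads. These 3 genes were below the filter and were not tested.

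**Figure D3:**
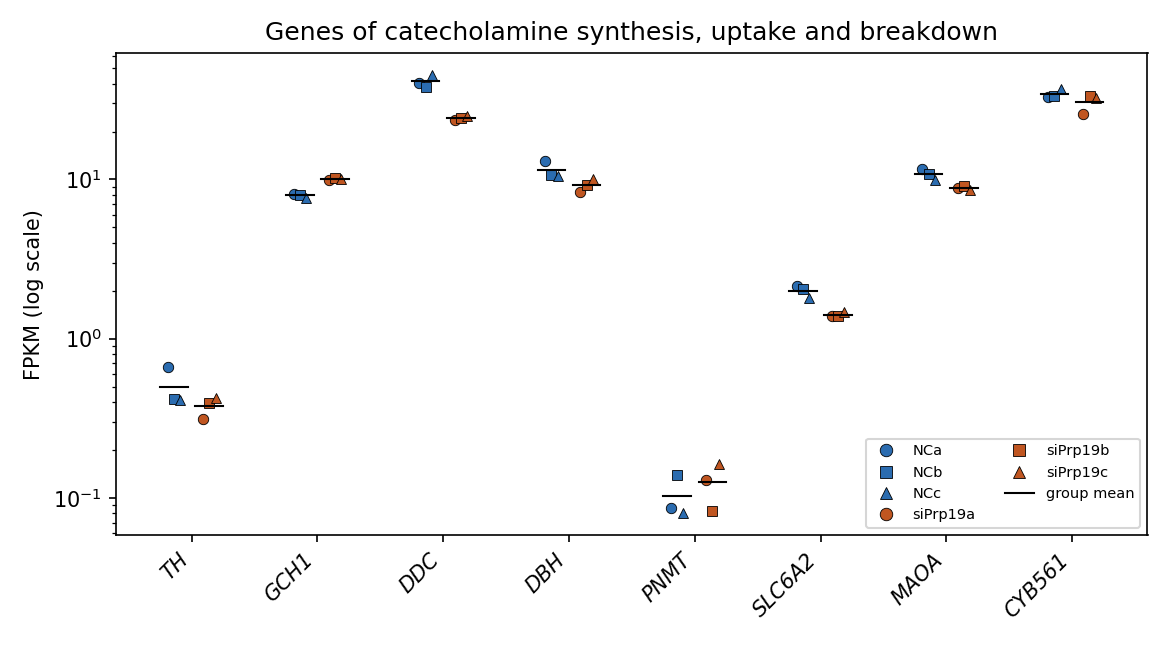
FPKM (log axis) per library of catecholamine genes. Blue points are NC libraries, orange points siPrp19 libraries and bars group means. *DDC* lies at 38.2 FPKM or more in NC and at 25.1 or less in siPrp19, while *TH* stays under 1 FPKM and *PNMT* between 0.0798 and 0.163 FPKM in all 6 libraries.

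Each family was then placed beside its paralogues. Of 13, 4 were tested and 0 passed by limma (7.94% of all genes), with 2 at an unadjusted p-value under 0.05 (23.6% of all genes). *MOXD1*, a relative of *DBH*, was at 39.99 FPKM in NC and 34.2 FPKM in siPrp19 (adjusted p = 0.146). *HAND1* was at 37.2 and 36.0 FPKM (adjusted p = 0.789), and *HAND2* was between 2.89 and 4.55 times as abundant as *HAND1*. *GATA4* was at 29.1 and 25.3 FPKM (adjusted p = 0.0987), a level close to that of *GATA3* and above that of *GATA2*. The 9 paralogues that were not tested had means below 1 FPKM.

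The mesenchymal side was expressed in the same libraries. Of 25 mesenchymal regulators, 20 were tested. Of these 1 rose (2.57% of all genes), 2 fell (5.37% of all genes) and 17 did not pass, with a median log2 fold change of -0.06. *TWIST1*, a factor of epithelial–mesenchymal transition, was at 57.2 ± 6.31 FPKM in NC and 43.4 ± 7.82 FPKM in siPrp19 (SD, n = 3 each; adjusted p = 0.149 by limma). The AP-1 subunits *FOSL1* (50.2 and 40.6 FPKM, adjusted p = 0.127) and *FOSL2* (33.3 and 32.0 FPKM, adjusted p = 0.751) did not pass. *SMAD3*, a transducer of TGF-beta, rose (log2 fold change 0.37, adjusted p = 0.0390), a call lost in 12 of 17 alternatives. *RUNX2* (-0.73, adjusted p = 0.00827) and *WWTR1*, which encodes TAZ (-0.55, adjusted p = 0.0146), fell by limma over the 6 libraries. Among the 7 mesenchymal structural genes, 6 were tested and 0 passed by limma (7.94% of all genes). Before adjustment, 2 had a p-value under 0.05 (23.6% of all genes). *COL1A1* was at 389 FPKM in NC and 375 FPKM in siPrp19, *S100A6* at 303 and 282 FPKM and *VIM* at 138 and 106 FPKM (adjusted p = 0.805, 0.797 and 0.129 by limma). None of the genes called in these lists passed in the 4 libraries by limma, nor with the close pairs of libraries averaged. In the latter fit the adjusted p-value by limma was 0.134 for *DDC*, 0.148 for *SOX11*, 0.152 for *RUNX2*, 0.162 for *CHGB* and 0.348 for *GCH1*.

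The median of the mean FPKM was 21.3 over the 8 members, 5.57 over the other adrenergic factors and 7.62 over the mesenchymal regulators. It was 34.2 over the mesenchymal structural genes and 21.5 over the fibroblast markers described below. The lists are short and were chosen by name, so these medians do not rank the states. The summed FPKM of the 8 members was between 335 and 359.7 in NC libraries and between 279 and 307 in siPrp19 libraries. This sum was led by *HAND2* (means of 167 FPKM in NC and 133 FPKM in siPrp19) and *TBX2* (89.0 and 79.8 FPKM). Neither of these genes passed by limma. The summed FPKM of the 25 mesenchymal regulators was between 330 and 336 in NC and between 303 and 310.3 in siPrp19.

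Markers of other cell types were examined as well. The 4 fibroblast markers were abundant, with *LUM* at 238 ± 14.5 FPKM in NC and 156 ± 20.1 FPKM in siPrp19 (SD, n = 3 each), and *DCN* at 23.9 and 18.9 FPKM. Of these, 3 of 4 fell by limma (*LUM*, *PDGFRA* and *PDGFRB*), and 0 of 4 passed in the 4 libraries, where 3 of 4 had an unadjusted p-value under 0.05. Their summed level was between 297 and 319.5 FPKM in NC and between 189 and 232 FPKM in siPrp19. All libraries came from the SK-N-AS line, so the name fibroblast markers does not mean that fibroblasts were present. The values of *HAND2* and *GATA3*, which did not pass, were also lower in siPrp19. A link between them and these markers was not tested. The 5 Schwann cell markers summed to between 0.639 and 1.29 FPKM and the 4 adrenal cortex markers to between 0.0943 and 0.250 FPKM. Among the former, *ERBB3* had a mean of 0.288 FPKM, and *CYP11A1* (0.117 FPKM), *STAR* (0.0539 FPKM) and *CYP17A1* (0 to 1 reads) led the latter. The defining genes *SOX10*, *S100B* and *NR5A1* had at most 9, 1 and 1 reads in a library.

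**Figure D4:**
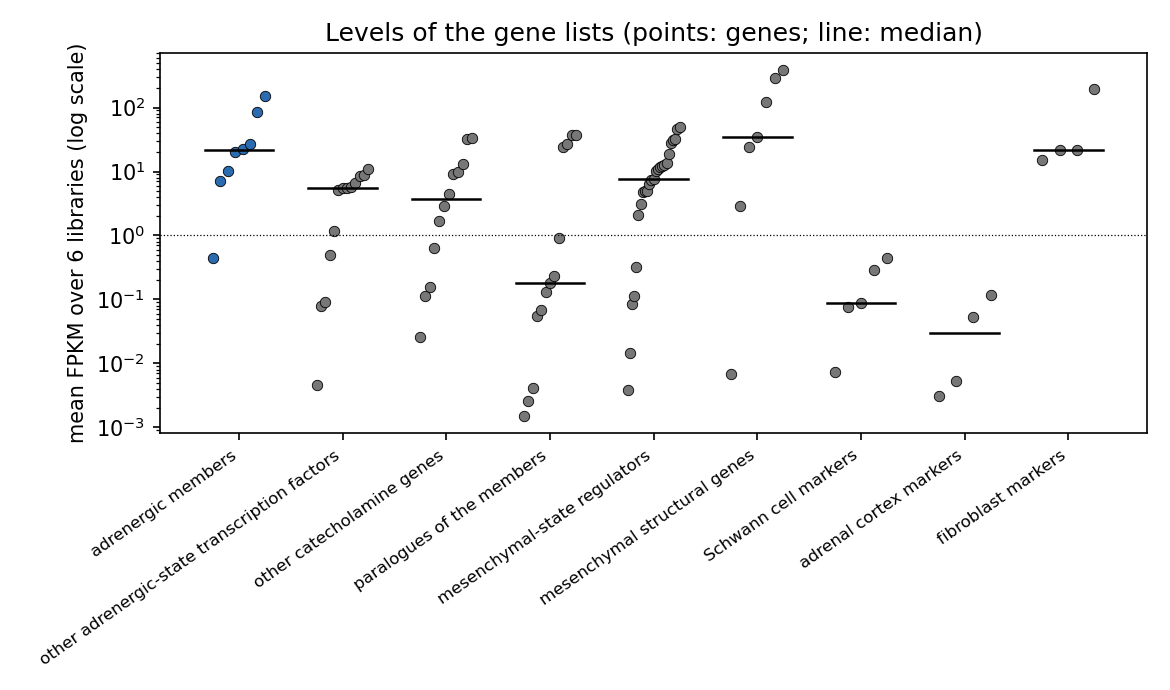
Mean FPKM over the 6 libraries (log axis) of each gene in the 9 lists, with a line at the list median and a dotted line at the filter of 1 FPKM. The adrenergic members (blue, median 21.3 FPKM), the mesenchymal regulators (median 7.62 FPKM) and the mesenchymal structural genes (median 34.2 FPKM) were expressed. Schwann cell and adrenal cortex markers lay below 1 FPKM.

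Neighbouring transcripts were examined because most members overlap a gene on the opposite strand, and no source used here states whether counting used strand. Reads from exon bases that both genes hold cannot be told apart without strand. Such bases were 867 of 3601 exon bases (24.1%) for *HAND2* with *HAND2-AS1*. They were few elsewhere, at 118 of 3776 for *DBH* with *DBH-AS1*, 29 of 1784 for *PHOX2A* with *INPPL1* and 28 of 6029 for *TBX2* with ENSG00000267131. The other pairs shared 0 exon bases. *HAND2-AS1*, which overlaps *HAND2*, fell. It was at 19.5 FPKM in NCa, 19.0 in NCb and 15.7 in NCc, and at 13.4 FPKM in siPrp19a, 13.3 in siPrp19b and 12.6 in siPrp19c. Its groups did not overlap, as for *HAND2*, and its log2 fold change was -0.43 ± 0.09 (SE, adjusted p = 0.0373 by limma, and 0.358 in the 4 libraries). This call was lost in 12 of 17 alternatives, among them every fit that left out 1 library other than NCc, where the adjusted p-value was between 0.0643 and 0.1395 against 0.0104 without NCc.

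*GATA2-AS1* was at 5.98 FPKM in NCa, 6.09 in NCb and 4.20 in NCc, and at 7.29 FPKM in siPrp19a, 7.19 in siPrp19b and 7.43 in siPrp19c. It lay higher in all siPrp19 libraries, as *GATA2* did, but did not pass (log2 fold change 0.38 ± 0.12 SE, adjusted p = 0.116 by limma, and 0.349 in the 4 libraries). *GATA3-AS1* (4.07 FPKM in NC and 3.68 in siPrp19, adjusted p = 0.660), *TBX2-AS1* (48.6 and 40.5 FPKM, adjusted p = 0.385) and *DBH-AS1* (13.9 and 12.8 FPKM, adjusted p = 0.714) had groups that overlapped. *ISL1-DT* starts 59 bases from *ISL1* on the opposite strand without overlapping it, and was at 1.80 and 1.61 FPKM (adjusted p = 0.625). *INPPL1*, which overlaps *PHOX2A*, was at 15.8 and 17.2 FPKM (adjusted p = 0.407). For *TBX2*, ENSG00000267131 was at 12.7 and 10.6 FPKM (adjusted p = 0.438). *MIR4686*, near *TH*, had 0 reads in every library, and ENSG00000232638, in *GATA3*, and ENSG00000261018, near *DBH*, had at most 3 and 2 reads in a library.

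**Figure D5:**
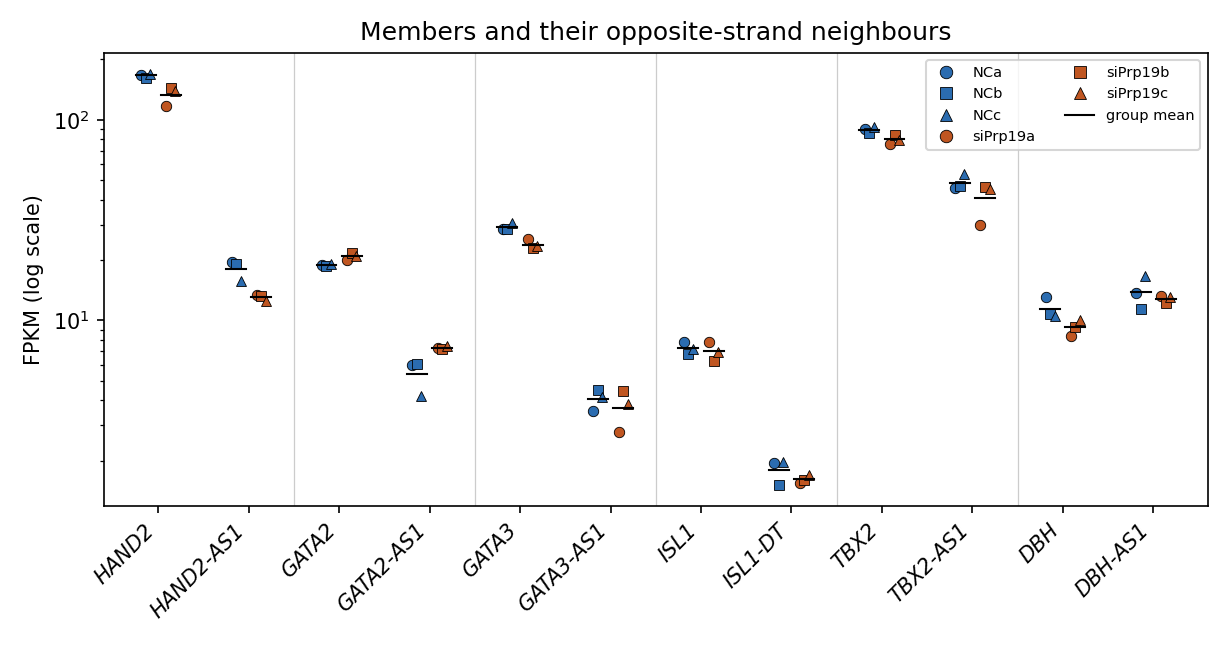
FPKM (log axis) per library of 6 members, each beside its opposite-strand neighbour. Blue points are NC libraries, orange points siPrp19 libraries and bars group means. *HAND2* and *HAND2-AS1* both lie lower in the siPrp19 libraries, and *GATA2* and *GATA2-AS1* both lie higher.

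Finally, the genes whose pattern over the 6 libraries was most like each tested member were listed by Pearson's r of log2(FPKM + 1). The points share the separation of the groups and the close pairs of libraries, and r is given as a description. The closest were *ARPC2* (r = 0.995) and *EIF2B1* (0.992) for *PHOX2A*, *ASH1L-AS1* (0.998) and *RCC2* (0.996) for *HAND2*, and *GNL2* (0.999) and *HSP90AA1* (0.998) for *GATA3*. For *GATA2* they were *PRKD2* (0.998) and *MFSD2A* (0.998), for *TBX2* *MZF1-AS1* (0.996) and *PIGQ* (0.991), for *ISL1* *TRIM55* (0.996) and *SNORD19C* (0.987), and for *DBH* *NABP1* (0.986) and ENSG00000248927 (0.981). The number of genes with r above 0.9 was 784 for *GATA3*, 590 for *HAND2*, 479 for *GATA2* and 42 for *ISL1*, out of 13717.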

How the data were processed

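RNA-seq of 6 libraries was used, 3 per group. Per the labels, 3 µg of RNA went into NEBNext Ultra libraries, and the submitters' processing notes name HISAT2 2.0.5, featureCounts 1.5.0-p3 and hg38. The authors deposited 1 FPKM value per gene and library for 58735 genes. The strand setting and annotation are not given in the sources used here. All identifiers were found in GENCODE 29 (GRCh38), which gave coordinates and exon lengths, and current symbols were assigned to 58207 of them. FPKM times exon length was a whole multiple of a constant in 100% of the values of up to 1000 reads (tolerance 0.05 reads), which gave the recovered reads.

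The 13718 genes with mean FPKM of 1 or more were tested on log2(FPKM + 1), which understates changes of low genes, by limma 3.58.1 in R 4.3.3 with a trended prior variance and p-values adjusted by Benjamini-Hochberg (threshold 0.05). The authors' test of counts was replaced because FPKM is not counts. Libraries were grouped by column name, each name being the description of exactly 1 sample. The alternatives were a pseudocount of 0.1, lower or no filter, quantile normalization, equal sums, no trend, the replicate block, voom, the recorded groups, the 4 libraries and leaving out each library. Averaging the close pairs was added after seeing the data. The fit was tested on simulated data with 3-fold changes in 200 genes and no close pairs of libraries. That test does not show whether the fit detects differences as small as those of the members. The members and lists were chosen with earlier results of these data known. Named were all members, the 3 most abundant genes and every called gene of each list, annotated neighbours within 5 kb, and the 2 genes most like each tested member. *CHGA*, *PNMT*, *SLC18A1*, *SLC18A2*, *SOX10*, *S100B* and *NR5A1* were named outside this rule, after their values were seen. Some genes that the rule names are not reported here. Python 3.11.15, numpy 2.4.6, pandas 2.3.3, scipy 1.17.1 and matplotlib 3.10.9 were used.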

Additional observations from a re-analysis of the deposited data

How the results depend on the processing

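Of 121 member values recomputed, 117 kept both direction and call. No member passed in the main comparison, so a kept call means not passed, and the count does not cover size. *TBX2* was at -0.16 in the main comparison and -0.01 under quantile normalization. *GATA2* was at 0.14 in the main comparison and 0.01 with the recorded groups. When each library was left out in turn, the number of members past the threshold ran from 0 to 1, the 1 being *GATA3* without siPrp19a. *ISL1* changed sign with voom (0.0187), with the recorded groups (0.011) and without siPrp19b, and ran from -0.120 to 0.0118 over the fits that left out 1 library. The 1089 genes past the threshold became 512 without a filter, 679 after rescaling to equal sums, 2 in the 4 libraries, 2 with the close pairs averaged and 0 with the recorded groups (191 at an unadjusted p-value under 0.05). They ran from 253 to 1354 without 1 library each, with 264 without NCa, 335 without NCb, 270 without siPrp19b and 253 without siPrp19c. The share of higher calls was larger under quantile normalization (501 higher, 586 lower) and voom (753 higher, 614 lower) than in the main comparison (353 higher, 736 lower). Here too the cause was not tested. With the replicate block, 928 genes and 0 members passed. Deviations of same-numbered libraries correlated at 0.13, -0.05 and 0.20. These values cannot tell whether the numbers pair the libraries, because each group holds a close pair. The deviations of siPrp19a, for example, correlated at 0.134 with NCa and at 0.131 with NCb. Depth limited *TH*, *PNMT* and *SLC18A2*. Over 17 alternatives each, the calls of the listed genes were lost in 12 for *SMAD3* and *HAND2-AS1*, 10 for *PDGFRB*, 9 for *GCH1*, 8 for *CHGB* and *LUM*, 7 for *PDGFRA* and *WWTR1*, 4 for *SOX11* and 3 for *DDC* and *RUNX2*, with no change of direction.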
